A study of Mus musculus with 6 samples.

Results

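The proliferin genes Prl2c2, Prl2c3 and Prl2c5 were examined in mouse ear skin lacking Ufl1 in keratin 14 lineage cells. These 3 genes, of 54532 in the deposited table, were taken by symbol. Prl2c5 was selected on its measured counts, being higher in the knockout than in controls, and the others are its close paralogs, so the difference between genotypes is given as a description, and calls made on it are printed without being read as evidence. RNA was sequenced from the ears of 3-month-old mice, with 3 libraries per group. Control mice carried a floxed Ufl1 allele, given as Ufl1f/+ or Ufl1f/f, and no Cre. Conditional knockout (cKO) mice were Ufl1f/f with KRT14Cre/+, a Cre driven by the promoter of a keratin of basal epidermal cells, so that effects of Cre itself and of Ufl1 loss cannot be told apart. The labels do not say that each library came from a separate animal.

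Proliferins belong to the prolactin and growth hormone family. They are secreted glycoproteins known best as products of trophoblast giant cells in the placenta, where they promote the growth of maternal blood vessels. Their older name, mitogen-regulated proteins, comes from their induction by growth factors in cultured fibroblasts, and family members have also been described in wounded skin and hair follicles. They bind the cation-independent mannose 6-phosphate receptor, which is encoded by Igf2r, rather than the prolactin receptor. The proliferin promoter is a textbook case of joint control by AP-1 and the glucocorticoid receptor.

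Total counts per library ranged from 17256339 to 20776539. Ufl1, the targeted gene, was at 57.9, 47.0 and 46.1 CPM (counts relative to TMM-scaled library size) in control libraries 1 to 3, against 34.9, 35.6 and 38.8 CPM in cKO libraries 1 to 3 (log2 fold change -0.47, SE 0.14, edgeR adjusted p = 0.778). Every cKO library lay below every control, as in 4.81% of all genes tested. The keratinocyte markers Krt5, Krt14, Krt1, Krt10 and Trp63 were measured in all libraries, with a summed level of 6060 to 14000 CPM in controls and of 9068 to 12392 CPM in cKO. Whole ears were used, so fewer cells of a type and less RNA per cell cannot be told apart in any value.

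The 3 genes lie on mouse chromosome 13 between bases 12790816 and 13191923 (mm10). Prl2c3 (ENSMUSG00000056457, 12790816 to 12800079) and Prl2c2 (ENSMUSG00000079092, 12996125 to 13005383) are on the minus strand, and Prl2c5 (ENSMUSG00000055360, 13182715 to 13191923) is on the plus strand. In the GENCODE M21 annotation of the same build, each main transcript has 5 exons. The coding sequence, stop codon included, is 675 bases long in Prl2c2 and Prl2c3 and 669 bases in Prl2c5.

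How far the counts of these paralogs can be separated depends on their sequences, and the stretch of 120 aligned coding bases with the most differences is shown first for that reason (aligned positions 257 to 376, counted from the start codon). Capitals mark the 9 positions at which the 3 genes are not all alike.
Prl2c5: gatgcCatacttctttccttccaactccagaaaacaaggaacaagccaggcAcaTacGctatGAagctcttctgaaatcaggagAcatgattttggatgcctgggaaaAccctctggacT
Prl2c3: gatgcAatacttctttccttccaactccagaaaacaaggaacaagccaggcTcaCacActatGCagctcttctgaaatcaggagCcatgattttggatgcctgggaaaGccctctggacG
Prl2c2: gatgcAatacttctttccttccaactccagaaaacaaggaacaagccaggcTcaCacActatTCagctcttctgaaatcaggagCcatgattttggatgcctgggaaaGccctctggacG

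A second stretch, aligned positions 472 to 531, is shown because it holds the length difference. Capitals mark 6 bases at the start of exon 5 that are present in Prl2c3 and Prl2c2 and absent from the annotated Prl2c5 transcript, and 1 substitution.
Prl2c5: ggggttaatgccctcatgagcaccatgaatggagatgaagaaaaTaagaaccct
Prl2c3: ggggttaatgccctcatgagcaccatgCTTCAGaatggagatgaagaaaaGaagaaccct
Prl2c2: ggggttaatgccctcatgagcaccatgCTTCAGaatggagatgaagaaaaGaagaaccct

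Over the whole coding sequence Prl2c3 and Prl2c2 differed at 3 of 675 bases (99.6% identity). Prl2c5 differed from Prl2c3 at 21 and from Prl2c2 at 20 of 669 aligned bases (96.9% and 97.0% identity), and at 19 positions it had a base that neither of the others had. Prl2c5 was thus the member set apart, and Prl2c2 and Prl2c3 were nearly the same sequence.

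**Figure D1:**
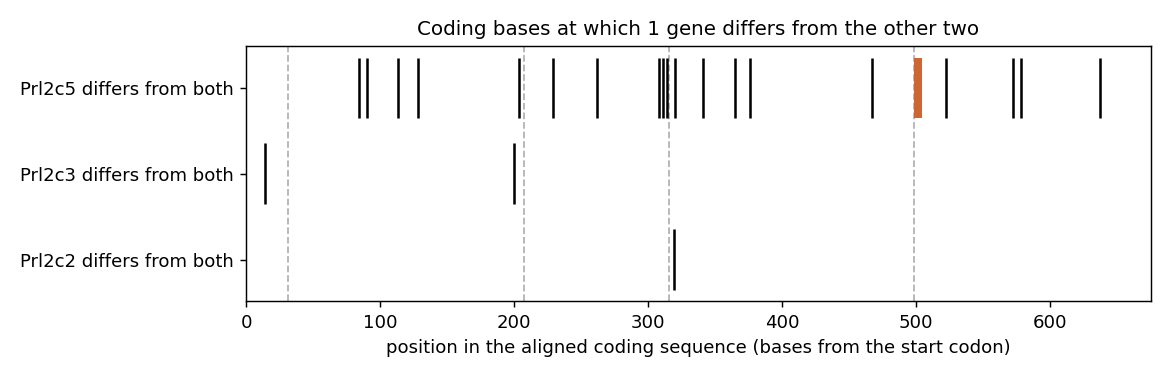
Positions at which 1 gene differs from the other two, along the aligned coding sequence in bases from the start codon. Black lines are substitutions, the orange block is the stretch of 6 bases absent from Prl2c5, and dashed lines are exon boundaries. Prl2c5 has 19 substitutions of its own, Prl2c3 has 2 and Prl2c2 has 1.

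The main transcripts were cut into all windows of a fixed length, and each window was searched for in the GENCODE M21 transcripts of every other gene. At 100 bases, 91.3% of the windows of Prl2c5 occurred in no other gene, next to 37.7% for Prl2c3 and 33.6% for Prl2c2. At 50 bases the shares were 61.4%, 21.4% and 10.5%, and at 150 bases they were 100%, 50.1% and 49.1%. Prl2c5 was the member whose windows were mostly its own at each of these lengths, while those of Prl2c2 and Prl2c3 were mostly shared at 50 and 100 bases. The read length and the treatment of reads with several matches are not given in the sources used here. Low counts of Prl2c2 and Prl2c3 thus do not show that these genes were silent.

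**Figure D2:**
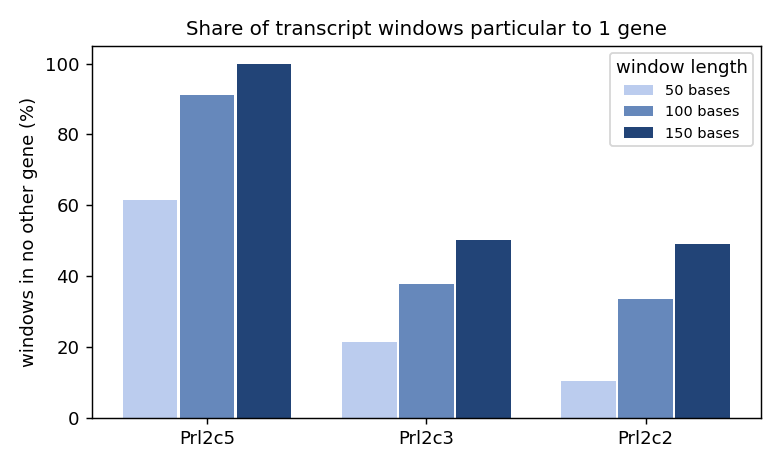
Share of all windows of 50, 100 or 150 bases in the main transcript of each gene (vertical axis, percent) that occur in no annotated transcript of another gene. The Prl2c5 bars reach 61.4%, 91.3% and 100%, and those of Prl2c3 and Prl2c2 stay at or below 50.1%.

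Prl2c5 carried nearly all counts of the family. Control libraries 1 to 3 had 1, 7 and 8 Prl2c5 counts, and cKO libraries 1 to 3 had 101, 50 and 56. Every cKO library was above every control, with 50 counts in the lowest cKO library and 8 in the highest control. Scaled to library size, the level was 0.0596, 0.361 and 0.378 CPM in the controls and 5.63, 2.78 and 2.93 CPM in the cKO. The means were 0.266 ± 0.179 CPM in controls and 3.78 ± 1.60 CPM in cKO (SD, n = 3 each).

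The log2 fold change of Prl2c5 from the edgeR fit was 3.75 (SE 0.58), the 8th highest of the 17318 genes tested, whose median was -0.01. Prl2c5 was selected on this difference, so nothing is read from that rank. Summed counts per total count were 13.3-fold higher in the cKO (exact 95% interval 7.98 to 23.6, counting error only, for 207 against 16 counts). The authors' deposited table gives Prl2c5 a value of 3.79 on the log2 scale. Without cKO 1, the highest library, the log2 fold change was 3.36 (SE 0.61), and without control 1, the lowest, it was 3.32 (SE 0.50).

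Within the cKO group the highest Prl2c5 count was in cKO 1. The 95% Poisson interval of its count was 82.3 to 123 in cKO 1, 37.1 to 65.9 in cKO 2 and 42.3 to 72.7 in cKO 3. The interval of cKO 1 did not overlap those of the other cKO libraries, which overlapped each other. These intervals cover counting error of unscaled counts only and do not include the variation between samples. Among the controls the intervals were 0.0253 to 5.57, 2.81 to 14.4 and 3.45 to 15.8, and all of these overlapped.

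**Figure D3:**
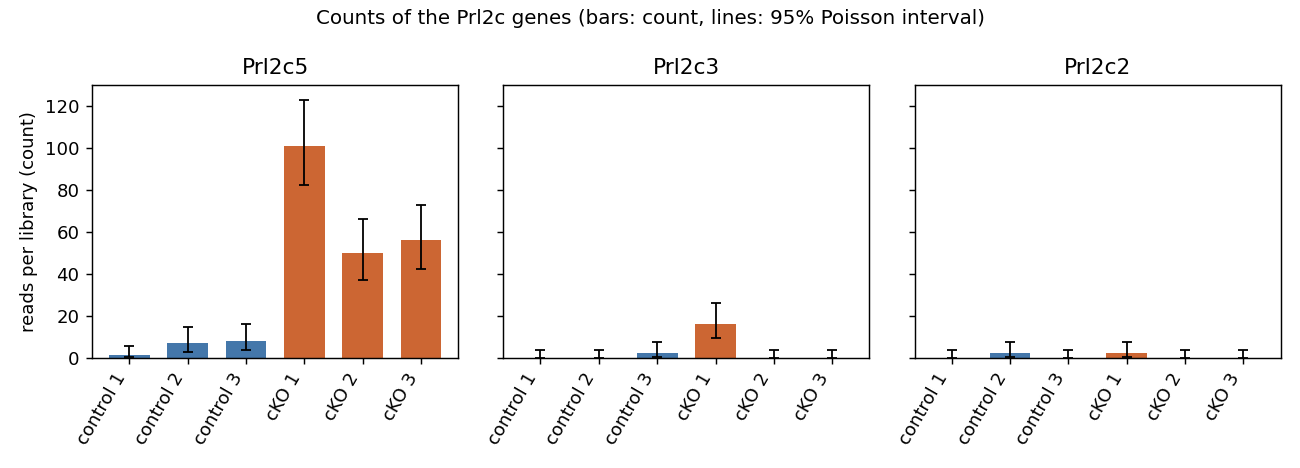
Reads counted for Prl2c5, Prl2c3 and Prl2c2 in each library (vertical axis, count), with 95% Poisson intervals that cover counting error only. Blue bars are controls and orange bars are cKO. Prl2c5 reaches 50 to 101 counts in the cKO and 1 to 8 in controls, and Prl2c3 is above 2 counts in cKO 1 alone, at 16.

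Prl2c3, for which RefSeq gives Prl2c4 as a synonym, had 0, 0 and 2 counts in control libraries 1 to 3, against 16, 0 and 0 counts in cKO libraries 1 to 3. The groups overlapped, and 1 library held 16 of the 18 counts. That library, cKO 1, was also the one with the most Prl2c5. The ratio of summed counts was 8.20 (exact 95% interval 1.93 to 73.5, counting error only), and without cKO 1 the cKO had 0 counts. Prl2c2 had 0, 2 and 0 counts in controls and 2, 0 and 0 counts in cKO, so no difference was detectable at this depth. A count of 0 allows up to 3 counts (1-sided 95% limit), or 0.144 to 0.174 CPM depending on the library.

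Since reads may be split among the paralogs, their counts were also added. The sum was 1, 9 and 10 counts in control libraries 1 to 3, against 119, 50 and 56 counts in cKO libraries 1 to 3. Its log2 fold change was 3.56 (SE 0.64), a value that does not depend on how counted reads were shared out within the family. Reads left uncounted because they matched several genes would be missing from it. Without cKO 1 it was 3.05 (SE 0.64). Prl2c5 held 223 of all 245 counts, or 91.0% (exact binomial 95% interval 86.7% to 94.3%). Its share was 84.9% in cKO 1 (77.2% to 90.8%), 100% of 50 counts in cKO 2 (92.9% to 100%) and 100% of 56 counts in cKO 3 (93.6% to 100%). These intervals treat reads as independent and cover counting error only.

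Only Prl2c5 among the 3 genes passed the filter on low counts (edgeR's filterByExpr), which it passed through the cKO libraries. At an adjusted p under 0.05, edgeR called 0 of this 1 tested member, where 0.0115% of all genes tested were called higher in the cKO and 0.00577% lower. At an unadjusted p under 0.05 edgeR called it higher, where 3.38% of all genes were higher and 1.95% lower. DESeq2 called it higher, where 0.387% of genes were called higher and 0.139% lower. All cKO libraries were above all controls in 5.73% of genes. Since Prl2c5 was selected on this difference, nothing is read from these counts.

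Per length, Prl2c5 remained a gene of modest level in the cKO. It was at 0.0504, 0.301 and 0.319 FPKM (fragments scaled to gene length and library size, as deposited) in control libraries 1 to 3, against 4.73, 2.34 and 2.49 FPKM in cKO libraries 1 to 3. By mean FPKM it was above 3.63% of the genes tested in controls and above 39.8% of them in the cKO, where the median gene was at 4.84 FPKM. The filter removed genes low in both groups, and Prl2c5 passed it through the cKO libraries. The difference between these ranks is therefore a description only. For comparison on the same scale, the prolactin receptor gene Prlr was at a mean of 2.17 FPKM in controls and 1.91 FPKM in cKO, and Krt14 at 1429 and 1794 FPKM.

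The 250 bases before the transcription start of Prl2c5 and Prl2c3 are shown as a description of these paralogs. Counts of the paralogs are not directly comparable, since fewer transcript windows of Prl2c3 are its own. Whether the bases shown bear on the counts was not tested. The sequences come from RefSeq (GRCm38.p6), whose table matched 2 of the 3 members. The windows are chr13:13182466-13182715 on the plus strand for Prl2c5 and chr13:12800080-12800329 on the minus strand for Prl2c3. Capitals mark the bases that differ or have no partner.
Prl2c5: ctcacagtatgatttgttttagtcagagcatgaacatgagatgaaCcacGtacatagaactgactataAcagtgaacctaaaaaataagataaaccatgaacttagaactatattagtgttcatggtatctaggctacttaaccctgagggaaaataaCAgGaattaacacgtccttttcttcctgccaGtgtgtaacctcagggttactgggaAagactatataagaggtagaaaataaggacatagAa
Prl2c3: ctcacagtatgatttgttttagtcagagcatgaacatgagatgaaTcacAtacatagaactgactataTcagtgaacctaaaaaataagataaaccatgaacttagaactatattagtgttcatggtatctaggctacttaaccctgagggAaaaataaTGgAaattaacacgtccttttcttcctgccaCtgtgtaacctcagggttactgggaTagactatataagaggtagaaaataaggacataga

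These windows differed at 8 of 249 aligned bases (96.8% identity). Both held the TATA-like run TATATAAG, starting at -31 in Prl2c5 and at -30 in Prl2c3 relative to the start, which 1.01% of the 32851 windows in the table held on either strand. The AP-1 motif TGANTCA, its own reverse complement in pattern, was searched on both strands of the table's windows, which run from 250 bases before to 50 after the start. It occurred in 7.81% of all windows. Prl2c3 had 1 match, TGAATCA, starting at -209, and Prl2c5 had no match. The substitution T46C, counted from 1 at the first base shown with the Prl2c3 base first, falls in it. These are matches of letters and do not show binding. For AP-1 only this exact pattern was searched, so the lack of a match does not show that Prl2c5 has no AP-1 site. The site of joint control by AP-1 and the glucocorticoid receptor was not searched for. All bases before position 46 are the same in both windows.

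AP-1 subunits and the glucocorticoid receptor were compared as known regulators of proliferin transcription. Of 8 genes (Fos, Fosb, Fosl1, Fosl2, Jun, Junb, Jund and Nr3c1), edgeR called 0 at an adjusted p under 0.05 and 0 at an unadjusted p under 0.05, and DESeq2 called 0. Their median log2 fold change was 0.04, with a range of -0.36 to 0.20. At an unadjusted p under 0.05, edgeR had 3.38% of all genes higher and 1.95% lower. DESeq2 called 0.387% higher and 0.139% lower. Having 0 calls among 8 genes is near these shares, so nothing is read from it. Fosl1, the subunit Fra-1, was at 4.06, 4.79 and 3.31 CPM in controls and 3.68, 3.72 and 2.04 CPM in cKO, and the groups overlapped. Its log2 fold change was -0.36 (SE 0.32, edgeR adjusted p = 0.997).

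The log2 fold changes of receptors and binding partners lay between -0.21 and 0.24. In this list of 5 (Igf2r, M6pr, Prlr, Ghr and Igf2) edgeR called 0 genes, with 0 at an unadjusted p under 0.05 and 0 called by DESeq2, and the median log2 fold change was -0.12. Igf2r, the proliferin receptor, was at 96.9, 68.1 and 98.1 CPM in controls and 106, 113 and 91.1 CPM in cKO, with overlapping groups and a log2 fold change of 0.24 (SE 0.17, edgeR adjusted p = 0.997). Prlr, the prolactin receptor, had a log2 fold change of -0.19 (SE 0.18, edgeR adjusted p = 0.997).

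The rest of the prolactin family was not detected. Prl2c1 and the other 22 listed family genes, from prolactin itself (Prl) to the placental lactogens Prl3d1 and Prl3b1, had 0 counts in all 6 libraries. Among trophoblast markers, Tpbpa, Tpbpb, Cdx2 and Ctsq were at 0 in every library, and Gcm1 and Hand1 had at most 2 counts in a library. Psg17, a pregnancy-specific glycoprotein gene, had 2, 0 and 1 counts in controls and 8, 1 and 0 counts in cKO. Its highest count was in cKO 1, the library that held most Prl2c3 counts, and the groups overlapped. Of the 3 trophoblast markers that passed the filter edgeR called 0, with 1 higher and 1 lower in the cKO at unadjusted p-values under 0.05 (3.38% and 1.95% of all genes), and DESeq2 called 0. Elf5 had a log2 fold change of 0.79 (SE 0.33, edgeR adjusted p = 0.917) and Ascl2 one of -0.88 (SE 0.34, edgeR adjusted p = 0.886).

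Genes near the family on chromosome 13 were compared to see whether the locus moved as a block. Between the ends of the family lay 11 other annotated genes, of which 9 had 0 counts throughout and none had more than 3 counts in a library. The nearest genes that passed the filter were Gpr137b-ps and Ero1lb on 1 side and Gm2423 and Gpr137b on the other. They start at -568, -617, 49.4 and 175 kb from the start of Prl2c5, and Gpr137b-ps and Gm2423 are annotated as pseudogenes. In the same order, the log2 fold changes were 0.17 (SE 0.18), -0.02 (SE 0.18), 0.24 (SE 0.49) and 0.17 (SE 0.17), each with an edgeR adjusted p of 0.997. Ero1lb, an oxidase of the endoplasmic reticulum, was at 14.4 to 20.8 CPM in controls and 16.1 to 17.4 CPM in cKO.

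Growth factors of keratinocytes and their receptors were listed because proliferins are induced by mitogens. Of 20 genes edgeR called 0, with 2 higher in the cKO and 0 lower when unadjusted p-values under 0.05 were counted (3.38% and 1.95% of all genes), and DESeq2 called 0. The median log2 fold change was 0.02. Epgn, encoding the EGF receptor ligand epigen, was at 2.74, 1.65 and 0.473 CPM in controls and 9.03, 3.11 and 4.66 CPM in cKO. In 2 of the 20 genes, Epgn and Btc, every cKO library was above every control, where 5.73% of all genes were. The log2 fold change of Epgn was 1.80 (SE 0.62, edgeR adjusted p = 0.857). Areg, encoding the EGF receptor ligand amphiregulin, was at 0.895, 0.206 and 0.425 CPM in controls and 3.51, 0.999 and 0.733 CPM in cKO, with overlapping groups and a log2 fold change of 1.79 (SE 0.74, edgeR adjusted p = 0.917). It was 0.78 without cKO 1 and 2.42 without control 1, and that of Epgn was 1.27 without cKO 1 and 2.40 without control 1. Both ligands were highest in cKO 1, as Prl2c5 was. The ligand gene Btc (log2 fold change 0.93, SE 0.43) and the receptor gene Fgfr2 (-0.41, SE 0.18) had adjusted p-values of 0.946 and 0.933 in the edgeR test.

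Wound and stress genes of the epidermis were high in the same library. The 9 genes listed were Krt6a, Krt6b, Krt16, Krt17, Sprr1b, Sprr2d, S100a8, S100a9 and Slpi. All 9 had log2 fold changes above 0 (median 2.41), where 47.8% of all genes did. In 6 every cKO library was above every control, where 5.73% of all genes were. EdgeR called 0 (7 higher at an unadjusted p under 0.05, where 3.38% of all genes were) and DESeq2 called 2, Krt16 and Slpi, where it called 0.387% of all genes higher. The list was chosen with earlier results of these data known. Its counts are therefore a description and are not read as an enrichment over all genes. The summed level of the list was 255, 240 and 226 CPM in control libraries 1 to 3, against 1920, 453 and 472 CPM in cKO libraries 1 to 3. Krt16, a keratin of wounded epidermis, was at 14.3, 6.70 and 3.17 CPM in controls and 358, 51.8 and 40.4 CPM in cKO. Sprr1b, a cornified envelope precursor, was at 5.13, 3.51 and 2.36 CPM in controls and 83.9, 16.7 and 8.17 CPM in cKO. All 9 genes were highest in cKO 1, as Prl2c5 was. Control 1, the lowest library for Prl2c5, was the highest control for 7 of the 9 genes, and control 2 was for Krt6a. Krt17, a keratin of hair follicles and wounded epidermis, was at 122, 187 and 188 CPM in controls and 382, 240 and 288 CPM in cKO (log2 fold change 0.87, SE 0.23, edgeR adjusted p = 0.650). The order of the 6 libraries for Krt17 was the same as for Prl2c5. That order rests in part on small differences in Prl2c5, with 7 against 8 counts in controls 2 and 3 and 50 against 56 in cKO 2 and 3. Without cKO 1 the log2 fold change was 2.53 in place of 4.23 for Krt16, 1.77 in place of 3.31 for Sprr1b and 1.17 in place of 2.24 for Slpi. The part of these differences in the Prl2c5 values was not tested, and the log2 fold change of Prl2c5 was 3.36 without cKO 1.

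**Figure D4:**
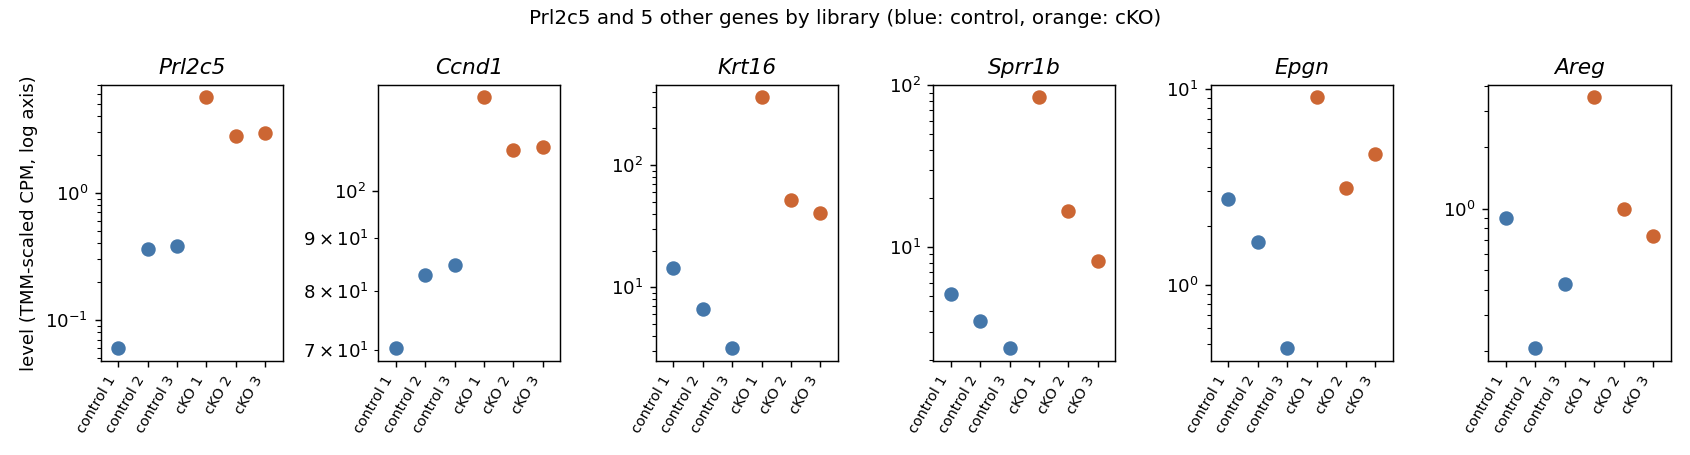
Levels (TMM-scaled CPM, log axis, each panel with its own range) of Prl2c5 and 5 other genes in each library, blue for control and orange for cKO. cKO 1 is the highest library in every panel, and control 1 is the lowest in the Prl2c5 and Ccnd1 panels. Ccnd1 was picked for its likeness to the summed Prl2c level.

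Hair follicle genes were listed because proliferin transcripts have been described there. Of 10 genes edgeR called 0, with Krt15 and Lgr5 lower in the cKO when unadjusted p-values under 0.05 were counted (1.95% of all genes), and DESeq2 called Krt15 lower (0.139% of all genes). The median log2 fold change was -0.07. The keratin gene Krt15, a marker of the hair follicle bulge, had levels of 445, 1375 and 730 CPM in the controls and of 213, 247 and 374 CPM in cKO, with a log2 fold change of -1.61 (SE 0.41, edgeR adjusted p = 0.650). Lgr5, a follicle stem cell receptor, was at 13.8, 15.8 and 11.4 CPM in controls and 9.98, 8.49 and 7.18 CPM in cKO (log2 fold change -0.68, SE 0.21, edgeR adjusted p = 0.811). Both had every cKO library below every control, where 4.81% of all genes did.

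Endothelial markers were listed because proliferins act on blood vessels. Of 10 genes edgeR called 0, with 0 at an unadjusted p under 0.05, and DESeq2 called 0. The median log2 fold change was 0.11, with a range of -0.20 to 0.25. Unadjusted p-values under 0.05 in edgeR covered 3.38% of all genes as higher and 1.95% as lower. DESeq2 called 0.387% higher and 0.139% lower. Among 10 genes 0 calls is near these shares, so it is not read as a lack of change in vessels. Eng, a vessel receptor of the TGF-beta family, was at 113, 81.0 and 93.7 CPM in controls and 128, 109 and 106 CPM in cKO, and the groups overlapped.

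Markers of other cell types in the ear were set beside the family. Fibroblast markers summed to 7150 to 18903 CPM in controls and 15076 to 16473 CPM in cKO, and muscle markers to 2198 to 5440 and 1644 to 4488 CPM. Of the 5 fibroblast, 5 muscle and 5 tested immune markers edgeR called 0, with 1 higher at an unadjusted p under 0.05 (3.38% of all genes), Csf3r, a receptor of neutrophils, and DESeq2 called 0. Csf3r was at 7.04, 2.32 and 4.21 CPM in controls and 41.7, 4.44 and 9.79 CPM in cKO, again highest in cKO 1, with a log2 fold change of 2.05 that was 0.66 without that library. Col1a1, a fibroblast collagen, was at 4885, 2394 and 3434 CPM in controls and 5539, 5420 and 5453 CPM in cKO (log2 fold change 0.62, SE 0.29, edgeR adjusted p = 0.949). Every cKO library was above every control for it, as in 5.73% of all genes. Ptprc, the pan-leukocyte marker CD45, was at 60.1, 26.1 and 42.0 CPM in controls and 71.5, 40.2 and 111 CPM in cKO, highest in cKO 3. Ly6g, a neutrophil surface marker, had 0 counts in all cKO libraries and at most 2 in a control. The part of these markers in the Prl2c5 values was not tested.

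The genes whose profile over the 6 libraries was most like that of the summed Prl2c level were found by Pearson correlation of log2 CPM, as a description, among 15886 genes with a mean of at least 1 CPM. The 5 highest were Ccnd1 (r = 0.999), which encodes cyclin D1 of the G1 phase, Blnk (0.995), an adaptor of B cell receptor signalling, Cdkn1a (0.994), a cell cycle inhibitor, Dnajb11 (0.993), a co-chaperone of the endoplasmic reticulum, and Tubb2a (0.993), a beta-tubulin. Ccnd1 was at 70.3, 82.8 and 84.8 CPM in control libraries 1 to 3, against 123, 110 and 110 CPM in cKO libraries 1 to 3. As for Prl2c5, control 1 was lowest and cKO 1 highest, a likeness that the choice by correlation favours. The log2 fold changes of these 5 genes lay between 0.42 and 0.53, far below that of Prl2c5, and their adjusted p-values lay between 0.625 and 0.857 in the edgeR test. These correlations rest on 6 libraries and include the difference between genotypes. They are the highest of 15886, so no link between the genes is read from them.

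**Figure D5:**
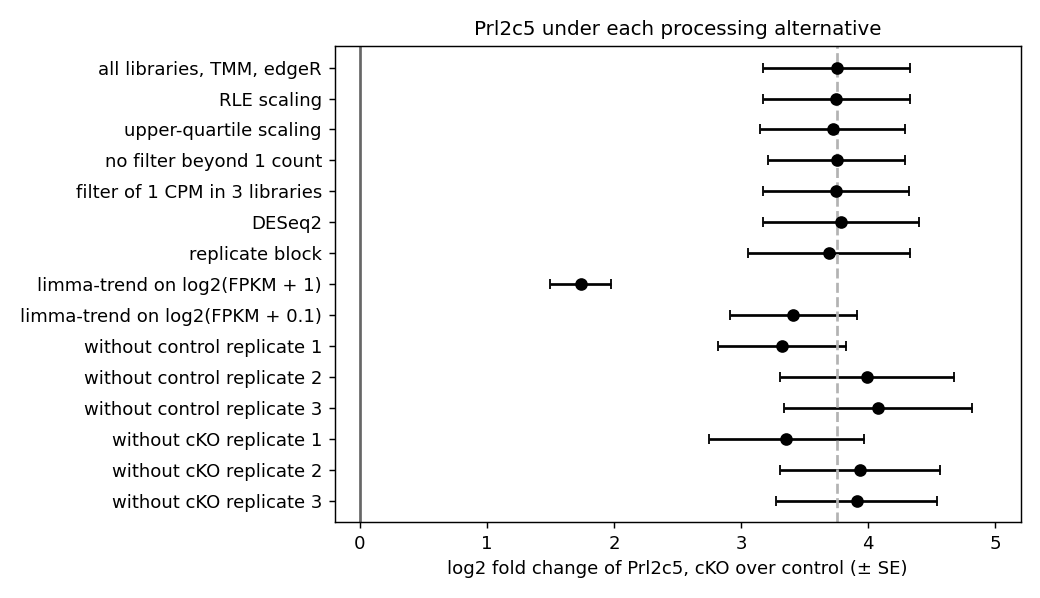
Log2 fold change of Prl2c5, cKO over control (horizontal axis, with SE bars), under each processing alternative, with a dashed line at 3.75. The values lie between 3.32 and 4.08, apart from 1.74 on log2(FPKM + 1), a scale that compresses differences of low genes.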

How the data were processed

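Raw counts per gene and FPKM values of the 6 libraries were deposited by the authors, per the file headers. Normalized group means (signal), log2 fold changes and p-values of the authors' own comparison were deposited beside them, per the file headers. The submitters' processing notes name HISAT2, HTSeq and mm10. Versions, strand setting, read length and the treatment of reads with several matches are not given in the sources used here. The labels name TRIzol extraction and the NEBNext Ultra RNA kit.

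Of 54532 genes, 17318 passed filterByExpr and were tested on counts with the edgeR 4.0.16 quasi-likelihood test (TMM scaling, robust estimates, R 4.3.3), two-sided, p-values being adjusted over all genes tested (Benjamini-Hochberg, threshold 0.05). SE is the log2 fold change over the root of F. Alternatives were RLE and upper-quartile scaling, other filters, DESeq2 1.42.0, blocking on replicate number, limma-trend (limma 3.58.1) on log2 FPKM with pseudocounts of 1 and 0.1 for genes with a mean of at least 0.5 FPKM, and leaving out each library. The script was tested on simulated data. Log2 CPM used a prior count of 2. Count intervals are exact Poisson or Clopper-Pearson intervals at 95% and cover counting error only. P-values set the difference between groups against the spread between these libraries, which is estimated in part from all genes tested.

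The members and gene lists were chosen with earlier results of these data known. Named were the 3 members, other Prl2c genes, Igf2r, Ufl1, up to 4 genes per list with the smallest p, the 5 most similar genes and the nearest 2 tested genes on each side. Other genes were named after their values were seen, as list contents, at 0 counts or for level.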

Additional observations from a re-analysis of the deposited data

How the results depend on the processing

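The log2 fold change of Prl2c5 stayed within its spread between libraries (pooled SD 0.75 on the log2 scale) under 13 of 14 alternatives, and was 1.74 on log2(FPKM + 1). That of the summed genes was also 1.74 on log2(FPKM + 1), with 3.05 to 3.89 when leaving out 1 library. The number of genes called, 3 by edgeR, was 25 without the filter, 91 in DESeq2, 0 on log2(FPKM + 1) and on log2(FPKM + 0.1), and 0 to 4 when leaving out 1 library (4 without control 2, 0 without any other). At an unadjusted p under 0.05 the FPKM fits had 500 and 490 genes higher and 307 and 309 lower, and edgeR without 1 library had 332 to 927 higher and 170 to 949 lower. With the replicate number as a block it was 12, and Prl2c5 was at 3.69 (SE 0.64). Same-numbered libraries of the groups deviated together with r of 0.22, -0.04 and -0.04. Libraries with different numbers had r of -0.16 to 0.19. With 3 libraries per group, these values cannot decide whether the numbers pair the libraries. Among 30 other named genes, 3 of 419 values changed sign: leaving out 1 library gave Ero1lb -0.13 to 0.14 (above 0 without control 1 and without cKO 2, at 0.0051) and Gm2423 -0.011 to 0.61 (below 0 without cKO 2). Krt16, Slpi and Krt15 passed in DESeq2, and Krt16 also with the block.

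Prl2c2 and Prl2c3 did not pass the filter. Without it their log2 fold changes were 0.06 (SE 1.87) and 2.89 (SE 1.72), values that depend on the prior count at so few counts. Depth limits Prl2c5 in controls, where 1 to 8 counts were read.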
